A study of Mus musculus with 12 samples.

Results

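Solute carriers are membrane proteins that move small molecules, and the mouse genes for them are named Slc followed by a family number. The genes described here are the 199 of the 11762 genes in the deposited expression table whose symbol begins with Slc and a number. Slc7a11, Slc2a1, Slc40a1, Slc11a1 and Slc11a2, 5 genes in all, were left out by name. The choice used symbols and no measured value. Of the 199, 196 code for carriers, while Slc4a1ap, Slc7a6os and Slc9a3r1 are 3 neighbours or partners of carriers that share the prefix and are kept apart below. The poly(A) RNA came from J774A.1, an established macrophage-like line from a BALB/c mouse. The study compared 4 groups of 3 biological replicates, 12 libraries in all: untreated cells (mock treatment, called control), cells given microparticles (MP), cells given lipopolysaccharide (LPS), the outer-membrane component of Gram-negative bacteria that acts through Toll-like receptor 4, and cells given LPS and MP together (LPS+MP). The labels name no dose, duration or microparticle material. They also do not say whether the replicates were separate cultures, so p-values measure the spread between these libraries. As J774A.1 is 1 transformed line, the values describe that line and not primary macrophages.

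Carriers of the plasma membrane take up amino acids, sugars, nucleosides, metals and ions, usually by coupling them to a sodium or proton gradient or by exchanging one solute for another. Others sit in lysosomes, the endoplasmic reticulum or the Golgi, and the SLC25 family exchanges metabolites across the inner mitochondrial membrane. In activated macrophages, cationic amino acid carriers bring in the arginine that inducible nitric oxide synthase and arginase use, and zinc, copper and iron carriers shift metals between the cell, the phagosome and the surroundings. By substrate, the table held 27 amino acid carriers, 2 peptide carriers, 13 sugar carriers, 24 metal carriers, 38 mitochondrial SLC25 carriers, 27 carriers of inorganic ions, 13 of nucleotide sugars, 11 of organic ions, 10 of monocarboxylates, 9 of vitamins, 6 of nucleosides and bases, 6 of lipids and choline, 8 SLC35 members of unknown substrate, and 2 others.

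Each value is a level in CPM (reads of the gene scaled to the library total), not divided by gene length. Differences are log2 differences of CPM + 1 from a limma fit over all genes, given with their standard error. All 4 groups share 1 estimate of the spread for each gene. The median SD over all genes on that scale was 0.191 with LPS, against 0.0845 in control, 0.0983 with MP and 0.0863 with LPS+MP. The shared standard errors do not reflect this wider spread of the LPS libraries. A gene is said to rise or fall where it passed a Benjamini-Hochberg adjusted p under 0.05 over all 11745 genes tested and a change of over 2-fold. The columns sum to between 998867 and 999273 in every library, so sequencing depth is unknown and no counting interval can be given. The second LPS library stood apart: 339 genes, 3 of them solute carriers, differed from the mean of its group by more than 1 on the log2 scale, against 29 and 17 in the other LPS libraries and 1 to 8 elsewhere. Markers of macrophages were present throughout, 9 of 10 in the table with a summed level of 5451 to 7943 CPM. The table held none of the T cell, B cell or epithelial markers looked for, 1 of 5 fibroblast markers (Pdgfra, group means 1.33 to 9.53 CPM), 2 of 4 endothelial markers (summed 1.58 to 6.25 CPM) and 1 of 5 neutrophil markers (S100a8, 1.73 to 4.18 CPM). In bulk RNA, a change in the share of cells that express a gene cannot be told apart from a change in RNA per cell.

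Promoter sequences of 3 carriers that rose with LPS and of a pair of metal carriers are shown first. Of the 199 genes, 151 had a promoter in the RefSeq table (GRCm38.p6), from which the 250 bases before each annotated start were read; some genes have several starts, so that the 151 gave 206 windows. They were searched on both strands for the NF-kB core GGGAANNNCC, since NF-kB is a main transcription factor downstream of LPS, and for the metal response element core, TGCACNC or TGCGCNC, to which the zinc-sensing factor MTF1 binds. The NF-kB core stood in at least 1 window of 3 of the 15 LPS-induced carriers with a promoter (20.0%), of 11 of all 151 members (7.28%) and of 5.62% of all genes. Counted by window, it stood in 5 of 28 (17.9%), 13 of 206 (6.31%) and 4.94%. The 3 genes, with the matched letters in capitals and the rest in lower case, 5′ to 3′ along the gene's strand, are Slc24a3 (chr2:145167525-145167774, plus strand), Slc6a13 (chr6:121303389-121303638, plus strand) and Slc7a7 (chr14:54409473-54409722, minus strand). The core stood in 1 of 2 windows of Slc24a3, 1 of 3 of Slc6a13 and 3 of 5 of Slc7a7, and the window shown for Slc6a13 lies inside the gene's interval in the deposited table, before an alternative start.

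Slc24a3: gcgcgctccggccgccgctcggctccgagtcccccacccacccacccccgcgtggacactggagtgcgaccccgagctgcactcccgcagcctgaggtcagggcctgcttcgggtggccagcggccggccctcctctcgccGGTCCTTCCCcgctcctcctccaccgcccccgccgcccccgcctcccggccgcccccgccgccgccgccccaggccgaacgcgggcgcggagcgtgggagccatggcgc
Slc6a13: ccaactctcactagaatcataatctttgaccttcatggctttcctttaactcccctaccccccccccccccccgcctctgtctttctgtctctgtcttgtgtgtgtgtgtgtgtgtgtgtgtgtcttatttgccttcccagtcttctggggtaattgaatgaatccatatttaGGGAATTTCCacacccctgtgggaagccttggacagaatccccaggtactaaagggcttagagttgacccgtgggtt
Slc7a7: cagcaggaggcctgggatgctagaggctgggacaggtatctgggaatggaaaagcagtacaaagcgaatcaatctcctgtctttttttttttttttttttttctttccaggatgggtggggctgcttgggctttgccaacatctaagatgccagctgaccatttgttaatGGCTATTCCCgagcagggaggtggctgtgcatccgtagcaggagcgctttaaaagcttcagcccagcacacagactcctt

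The metal response element core stood in at least 1 window of 10 of the 20 metal carriers with a promoter (50.0%), of 49 of 151 members (32.5%) and of 23.8% of all genes. Counted by window, it stood in 11 of 23 (47.8%), 53 of 206 (25.7%) and 21.4%. A pair of these is shown, the copper carrier Slc31a2 (chr4:62286179-62286428, plus strand), the metal carrier with the largest rise, and the zinc exporter Slc30a1 (chr1:191906531-191906780, plus strand), which passed the fold threshold in no comparison. Each has 1 window, and that of Slc31a2 also lies inside the gene's interval in the deposited table.

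Slc31a2: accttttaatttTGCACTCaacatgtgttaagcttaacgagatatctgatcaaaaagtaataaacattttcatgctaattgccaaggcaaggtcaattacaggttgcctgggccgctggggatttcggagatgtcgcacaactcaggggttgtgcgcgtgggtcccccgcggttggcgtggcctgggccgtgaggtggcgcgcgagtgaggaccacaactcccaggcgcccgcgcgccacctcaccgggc
Slc30a1: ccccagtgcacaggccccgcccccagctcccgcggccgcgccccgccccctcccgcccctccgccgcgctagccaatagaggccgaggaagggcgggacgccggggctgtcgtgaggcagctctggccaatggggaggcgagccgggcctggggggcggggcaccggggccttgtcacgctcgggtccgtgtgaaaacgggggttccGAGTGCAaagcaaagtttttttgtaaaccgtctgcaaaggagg

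A match says only that these letters are present, and the table had no promoter entry for Slc7a2, Slc15a3, Slc25a37, Slc14a1 and Slc39a4.

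Of the 199 genes, 198 passed the low-value filter (at least 1 CPM in at least 3 libraries), and 181 reached 1 CPM in every library. Of all 11762 genes in the deposited table, 11745 passed, so it held few genes at low levels. Solute carrier genes missing from it are not described here, and their levels are not known. Slc3a1, a subunit of the cystine and dibasic amino acid carrier, did not pass. LPS gave the most calls among single treatments: 21 members rose against control (10.6%, where 8.3% of all genes tested rose) and 6 fell (3.03%, against 8.05% of all genes). MP alone raised 8 members (4.04%, against 1.82% of all genes) and lowered 2 (1.01%, against 1.85%), or 1 without any 1 of the control libraries. With both agents, 20 rose against control (10.1%, against 8.52%) and 13 fell (6.57%, against 12.3%). These 3 comparisons share the control libraries. The share of risers lay above the background with MP (6 to 9 members on leaving out single libraries), and near it with LPS and with both agents. The share that fell was below the background with LPS and with both agents, and with MP the count is too small to be read against it.

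Adding MP to LPS called few carriers. Against LPS alone, 0 members rose by limma (0.63% of all genes did). At an unadjusted p under 0.05, 26 of the 198 were higher, all short of 2-fold, as were 2014 of all 11745 genes at any fold. At an adjusted p under 0.05, 20 members were higher (13% of all genes). In the same comparison Slc14a1, Slc28a2 and Slc25a10 fell, 3 in all (1.52%, against 3.89% of all genes). The count of risers became 1 without the first LPS library (Slc6a8), the second LPS library (Slc20a1) or the second LPS+MP library (Slc46a3). Against MP alone, LPS+MP raised 13 (6.57%, against 5.71%) and lowered 11 (5.56%, against 7.88%). The median log2 difference of the 198 members was 0.16 with LPS (all genes -0.08), 0.03 with MP (all genes 0.02) and -0.15 for LPS+MP against LPS (all genes -0.05). Scaling moved the split for LPS+MP against MP: median-ratio scaling gave 18 risers and 6 fallers and quantile normalization 15 and 8, as the median of all genes moved from -0.14 to -0.00482 and -0.0186. At an adjusted p under 0.05 alone, 54 members were higher and 36 lower with MP (20.6% and 18.3% of all genes), 87 and 46 with LPS (26.6% and 35.6%), and 78 and 63 with LPS+MP against control (27.7% and 38.6%). For LPS+MP the counts were 20 and 65 against LPS (13% and 22.2% of all genes) and 57 and 59 against MP (19% and 36.6%). In all, 50 members were called in at least 1 of the 5 pairwise comparisons and 148 in none.

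**Figure D1:**
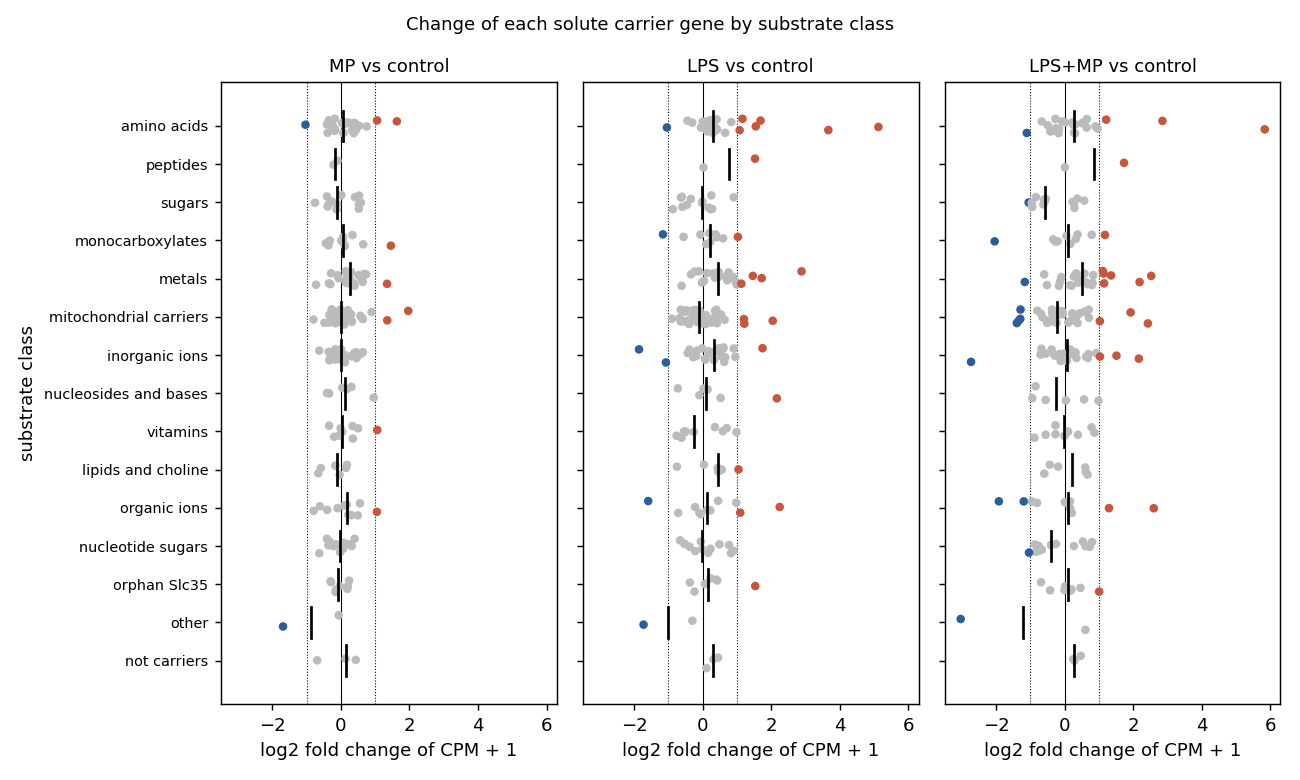
Log2 difference of every tested solute carrier gene from control, by substrate class, for MP, LPS and LPS+MP. Each point is a gene (red rose, blue fell, grey not called), the black bar is the class median and dotted lines mark a 2-fold change; the highest point in the LPS panel is the amino acid carrier Slc7a2 at 5.13.

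Among amino acid carriers, LPS raised 6 of 26 tested (23.1%, against 8.3% of all genes) and lowered 1 (3.85%, against 8.05%). The class median with LPS was 0.29, against -0.08 over all genes. MP raised 2 (7.69%, against 1.82%) and lowered 1 (3.85%, against 1.85%), and LPS+MP raised 3 of the 26 (against 8.52% of all genes) and lowered 1 (3.85%, against 12.3%) relative to control. Slc7a2 codes for CAT2, the inducible carrier of arginine, lysine and ornithine (chr8:40862396-40922308, plus strand). It was at 13.2, 13.7 and 13.0 CPM in the control libraries, 17.9, 16.1 and 13.1 with MP, 589, 464 and 452 with LPS, and 881, 738 and 844 with LPS+MP. All 6 libraries with LPS were far above all 6 without it, and the LPS+MP libraries were above every LPS library. The difference with LPS was 5.13 ± 0.11 (adjusted p = 1.03e-14), the largest of any member, and with LPS+MP against control 5.84 ± 0.11 (adjusted p = 1.41e-15). LPS+MP exceeded LPS by 0.71 ± 0.11 (adjusted p = 0.000188), short of 2-fold. Its constitutive relative Slc7a1 (CAT1) stood at 229 ± 13.0 CPM in control cells (SD, n = 3) and 251 ± 18.9 with LPS, with a difference of 0.13 ± 0.07 (adjusted p = 0.127).

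Slc7a7, the light chain of the exchanger that releases cationic amino acids in return for neutral ones and one of the genes with a promoter window shown above, was measured at 38.1, 37.0 and 38.9 CPM in control cells and 40.9, 37.5 and 41.2 with MP. With LPS it was at 125, 127 and 121 CPM, a rise of 1.69 ± 0.07 (adjusted p = 2.48e-11). With LPS+MP it was at 69.1, 77.4 and 79.2 CPM, below every LPS library by 0.72 ± 0.07 (adjusted p = 2.58e-06) and above every control library by 0.97 ± 0.07, just under 2-fold. Slc7a2 and Slc7a7 thus lay on opposite sides of their LPS level when MP was added. The heavy chain shared by SLC7 exchangers, Slc3a2 (4F2hc), differed from control by 0.30 ± 0.11 with LPS (adjusted p = 0.0283) and 0.57 ± 0.11 with LPS+MP (adjusted p = 0.000352), both short of 2-fold.

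The neighbouring genes Slc6a12 and Slc6a13 lie 5.34 kb apart on chromosome 6, on the same strand (chr6:121343076-121365775 and chr6:121300227-121337733). They code for carriers of betaine and GABA (BGT1) and of GABA (GAT2). Slc6a12 was at 2.43, 3.13 and 2.72 CPM in control, 1.61, 2.53 and 2.17 with MP, 61.3, 41.2 and 39.8 with LPS, and 28.3, 22.4 and 28.2 with LPS+MP. Slc6a13, with a promoter window shown above, was at 2.00, 1.64 and 0.813 CPM in control, 0.396, 1.03 and 1.44 with MP, 5.95, 6.63 and 5.79 with LPS, and 2.88, 2.87 and 2.67 with LPS+MP. In both genes the LPS libraries were the highest and the LPS+MP libraries lay between them and control. The rise with LPS was 3.66 ± 0.17 for Slc6a12 (adjusted p = 4.41e-11) and 1.55 ± 0.21 for Slc6a13 (adjusted p = 1.19e-05). With LPS+MP against LPS both were lower by less than 2-fold, at -0.81 ± 0.17 and -0.90 ± 0.21 (adjusted p = 0.00179 and 0.00388).

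**Figure D2:**
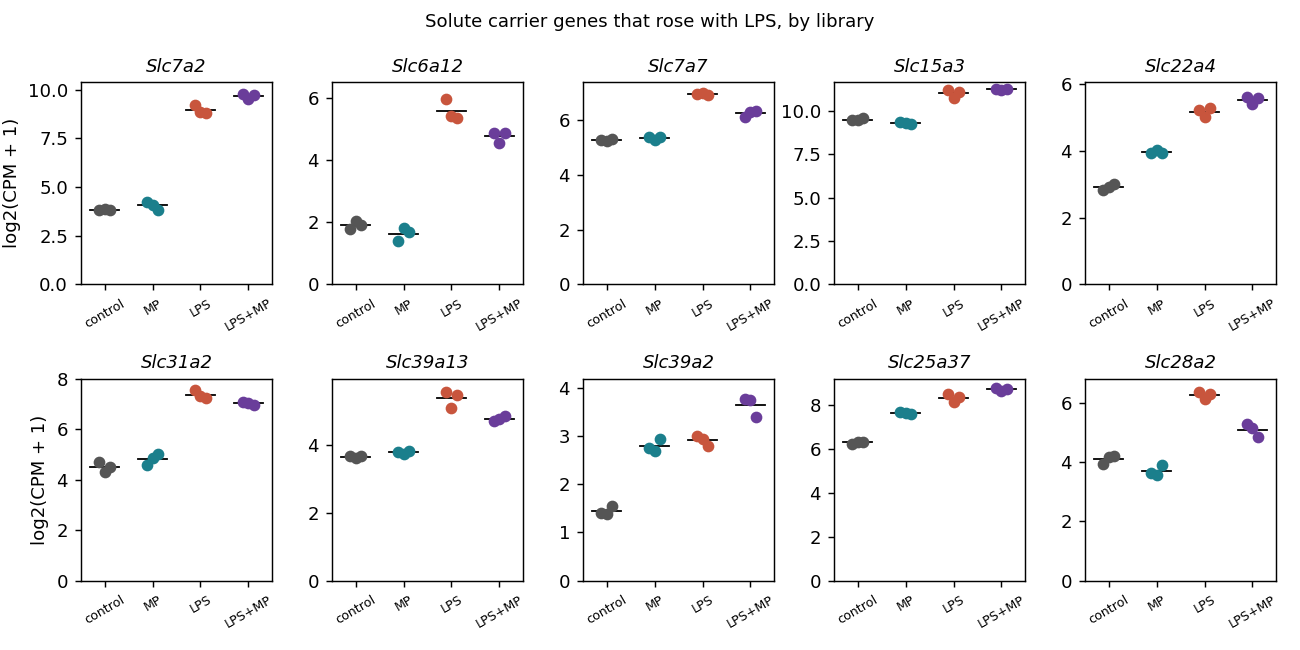
Level of 10 solute carrier genes in each library as log2(CPM + 1), by group (points are libraries, the black bar is the group mean, n = 3). In every panel the 3 LPS libraries lie above all control libraries. Slc7a7, Slc6a12, Slc28a2, Slc31a2 and Slc39a13 are lower with LPS+MP than with LPS.

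Slc6a9 and Slc1a4, carriers of glycine (GlyT1) and of alanine, serine and other small neutral amino acids (ASCT1), were the amino acid carriers that rose with MP. Slc6a9 was at 9.81, 8.58 and 9.32 CPM in control, 29.2, 29.0 and 34.2 with MP, 19.2, 24.4 and 22.2 with LPS, and 22.8, 22.1 and 23.4 with LPS+MP, so that all treated libraries were above control and MP alone gave the highest. The rise was 1.63 ± 0.11 with MP and 1.16 ± 0.11 with LPS (adjusted p = 2.78e-08 and 1.67e-07). Slc1a4 was at 20.3, 21.5 and 23.9 CPM in control, 51.7, 44.0 and 44.1 with MP, 28.3, 26.9 and 29.6 with LPS, and 25.8, 24.9 and 26.3 with LPS+MP. Only the MP group of Slc1a4 passed 2-fold, at 1.06 ± 0.09 (adjusted p = 6.08e-07), and at 0.98 without the first MP library it was just short. Slc38a6, of a sodium-coupled neutral amino acid carrier family, rose with LPS by 1.08 ± 0.08 (adjusted p = 7.19e-09), from 57.9 ± 2.71 to 124 ± 11.8 CPM.

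The single amino acid carrier that fell, Slc36a2 (a proton-coupled carrier of glycine, proline and alanine), was low in all groups. It read 1.12, 1.30 and 1.08 CPM in control and at most 0.152 CPM in any treated library. It reached 1 CPM only in the control libraries, so it had to differ to be tested, and without any 1 of them it leaves the tested set; under quantile normalization its difference with MP was -0.997, short of 2-fold. Slc7a8 and Slc6a6, the class members with the highest mean CPM over all 12 libraries, passed the fold threshold in no comparison. Slc7a8 (LAT2) ranged from 504 to 752 CPM over the 12 libraries, with group means of 592 ± 38.4 in control, 519.6 ± 14.7 with MP, 675 ± 62.1 with LPS and 711 ± 35.9 with LPS+MP. Slc6a6, the taurine carrier, was at 675 ± 36.4 CPM in control and 509 ± 9.50 with MP, a difference of -0.41 ± 0.07 (adjusted p = 0.000214). Slc7a5 (LAT1), the carrier of leucine and other large neutral amino acids, was higher with MP by 0.53 ± 0.10 (adjusted p = 0.00055) and lower with LPS (-0.45 ± 0.10, adjusted p = 0.000981).

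Of the peptide carriers, Slc15a3 (PHT2) sits in endosomes and lysosomes and carries histidine and small peptides, bacterial muramyl dipeptide among them. Per kilobase of transcript its mean over all 12 libraries was the highest of the 197 members with a known transcript length, at 623.6 CPM per kb. Its group means were 307.9 CPM per kb in control, 264.8 with MP, 895.9 with LPS and 1026 with LPS+MP; with MP the ADP/ATP carrier Slc25a5 was above it, at 287.2. Its CPM was 701, 707 and 758 in control, 644, 619 and 599 with MP, 2397, 1714 and 2192 with LPS, and 2407, 2384 and 2426 with LPS+MP. The groups with and without LPS did not overlap, and the MP libraries were all slightly below control. It rose by 1.53 ± 0.10 with LPS (adjusted p = 2.68e-09) and by 1.95 ± 0.10 with LPS+MP against MP (adjusted p = 1.37e-10). Its relative Slc15a4 (PHT1), which acts in endolysosomal Toll-like receptor signalling, stayed between 46.3 and 54.4 CPM in all libraries, with a difference of 0.02 ± 0.07 with LPS (adjusted p = 0.798).

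No sugar carrier passed the threshold with MP or with LPS by limma, of 13 tested. Of all genes, 1.82% rose and 1.85% fell with MP, and 8.3% and 8.05% did with LPS. At an unadjusted p under 0.05, 5 were higher and 4 lower with MP, and 2 higher and 5 lower with LPS. Of all 11745 genes, 2947 were higher and 2627 lower with MP at that p, and 3302 and 4406 with LPS. With LPS+MP against control 1 fell (7.69%, against 12.3% of all genes) and the class median was -0.57, against -0.10 over all genes. Slc2a3 (GLUT3), a high-affinity glucose carrier, was at 114, 108 and 111 CPM in control, 99.6, 99.0 and 107 with MP, 68.4, 80.4 and 69.7 with LPS, and 53.1, 55.9 and 51.2 with LPS+MP. The groups lay in that order without overlap. Its fall with LPS+MP was 1.05 ± 0.08 on the log2 scale (adjusted p = 5.79e-09), and the difference was -0.94 under median-ratio scaling and -0.99 under quantile normalization, both short of 2-fold.

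Slc37a2, a sugar phosphate exchanger of the endoplasmic reticulum, moved in opposite directions with MP and LPS. It was at 258, 252 and 268 CPM in control, 372, 379.6 and 366 with MP, 146, 131 and 148 with LPS, and 171, 176 and 175 with LPS+MP, with no overlap between any groups. It fell with LPS+MP against MP by 1.09 ± 0.06 on the log2 scale (adjusted p = 6.4e-10; the difference was -0.95 under median-ratio scaling). The difference from control was 0.52 ± 0.06 with MP and -0.87 ± 0.06 with LPS (adjusted p = 1.4e-05 and 1e-08). Slc2a6 (GLUT6), a lysosomal glucose carrier family member, went the other way. It was at 194, 185 and 195 CPM in control, 131, 142 and 161 with MP, 458, 291 and 349 with LPS, and 286, 271 and 302 with LPS+MP. Its difference with LPS was 0.91 ± 0.12 (adjusted p = 1.16e-05), and it was called as rising without the second LPS library, the lowest of its group. Slc37a4, which carries glucose 6-phosphate into the endoplasmic reticulum, was lower than control in all treated groups, at 41.9 ± 2.88 CPM in control, 24.4 ± 1.35 with MP, 27.5 ± 2.90 with LPS and 21.3 ± 0.921 with LPS+MP, each short of 2-fold. Slc2a12 (GLUT12) passed for LPS+MP against MP at 1.07 ± 0.293 against 3.17 ± 0.809 CPM, where it fell by 1.00 ± 0.18 on the log2 scale, a call lost under both other scalings and, at -0.88 to -0.96, without the second or the third MP library or the third LPS+MP library.

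Metal carriers had higher medians than amino acid, sugar and mitochondrial carriers in each treated group against control. LPS raised 4 of 24 (16.7%, against 8.3% of all genes) and lowered 0 by limma (against 8.05%). MP raised 1 (4.17%, against 1.82%) and lowered 0 (against 1.85%). LPS+MP raised 6 (25%, against 8.52%) and lowered 1 (4.17%, against 12.3%) relative to control. At an unadjusted p under 0.05, 3 were lower with LPS and 4 with MP, as were 4406 and 2627 of all 11745 genes. The medians were 0.46, 0.28 and 0.51, against -0.08, 0.02 and -0.10 over all genes. Without the fold threshold, 17 of 24 were higher with LPS and 2 lower (26.6% and 35.6% of all genes). Of the 12 SLC39 zinc importers tested (ZIP proteins, which move metal into the cytosol), 3 rose with LPS and 4 rose and 1 fell with LPS+MP against control. Of the 6 SLC30 exporters (ZnT proteins), 0 were called in any comparison by limma. At an adjusted p under 0.05 alone, 8 of the 12 SLC39 and 4 of the 6 SLC30 members were higher with LPS (26.6% of all genes). At that p, 1 of each family was lower (35.6% of all genes), and the families were not tested against each other.

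The copper carriers Slc31a2 (CTR2) and Slc31a1 (CTR1) lie 62.3 kb apart on chromosome 4 (chr4:62262562-62298411 and chr4:62360727-62391769). Slc31a2, whose promoter is shown above, was at 25.1, 18.7 and 21.5 CPM in control, 23.3, 27.9 and 31.5 with MP, 186, 161 and 153 with LPS, and 135, 131 and 124 with LPS+MP. All LPS libraries exceeded all LPS+MP libraries, and both groups were well above the rest. The rise was 2.88 ± 0.12 with LPS (adjusted p = 1.05e-11) and 2.53 ± 0.12 with LPS+MP (adjusted p = 2.64e-11). Slc31a1, the main copper importer of the plasma membrane, was at 88.3 ± 4.08 CPM in control, 71.2 ± 1.77 with MP, 165 ± 20.3 with LPS and 156 ± 10.0 with LPS+MP. It rose for LPS+MP against MP by 1.12 ± 0.09 (adjusted p = 1.87e-08), and against control it was higher with LPS by 0.89 ± 0.09 (adjusted p = 2.65e-07).

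Among zinc importers, Slc39a2 (ZIP2) was at 1.64, 1.62 and 1.95 CPM in control, 5.79, 5.42 and 6.68 with MP, 7.02, 6.67 and 5.94 with LPS, and 12.7, 12.5 and 9.53 with LPS+MP. Each agent alone gave like levels, and the pair gave the highest. The rise was 1.35 ± 0.14 with MP, 1.46 ± 0.14 with LPS and 2.19 ± 0.14 with LPS+MP (adjusted p = 2.98e-06, 2.3e-07 and 1.3e-09). Slc39a13 (ZIP13) was at 11.8, 11.2 and 11.9 CPM in control, 12.9, 12.2 and 13.3 with MP, 46.1, 33.2 and 43.9 with LPS, and 25.2, 26.0 and 28.0 with LPS+MP. Here LPS alone was highest, with a rise of 1.72 ± 0.11 (adjusted p = 3.43e-09), and LPS+MP lay below every LPS library by 0.61 ± 0.11 (adjusted p = 0.000829). Slc39a4 (ZIP4) rose with LPS by 1.13 ± 0.12 (77.8 ± 5.60 to 174 ± 37.2 CPM), and Slc39a14 (ZIP14), which also carries non-transferrin-bound iron, rose with LPS+MP by 1.14 ± 0.11 (12.7 ± 1.13 to 29.0 ± 1.58 CPM).

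Slc39a8 (ZIP8) was the one metal carrier that fell. It was at 39.5, 41.1 and 40.5 CPM in control, 52.6, 49.9 and 58.6 with MP, 25.6, 27.6 and 24.9 with LPS, and 17.5, 16.1 and 19.1 with LPS+MP. The groups did not overlap: MP alone stood above control and both LPS groups below it. The fall with LPS+MP was 1.56 ± 0.09 on the log2 scale against MP and 1.16 ± 0.09 against control (adjusted p = 6.43e-10 and 1.57e-08), the second at -0.99 under quantile normalization. Slc48a1 (HRG1), which moves heme out of the phagolysosome, was at 230.4, 213 and 209.7 CPM in control, 319, 338 and 340.3 with MP, 423, 285 and 369 with LPS, and 487, 490.2 and 479.5 with LPS+MP. It rose with LPS+MP by 1.15 ± 0.11 (adjusted p = 1.01e-07) and was higher with each agent alone by 0.61 ± 0.11 (MP) and 0.70 ± 0.11 (LPS). Slc39a7 (ZIP7), the zinc channel of the endoplasmic reticulum, was at 193 ± 10.9 CPM in control, 251 ± 19.9 with MP, 327 ± 23.7 with LPS and 345 ± 2.88 with LPS+MP, passing 2-fold in no comparison. Slc30a1 (ZnT1), the zinc exporter of the plasma membrane, was at 71.9 ± 3.85 CPM in control, 80.3 ± 4.31 with MP and 74.5 ± 13.5 with LPS, and at 50.3 ± 6.01 with LPS+MP it was lower than with LPS by 0.55 ± 0.11 (adjusted p = 0.00149).

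Of the 38 mitochondrial carriers, 3 rose with LPS (7.89%, against 8.3% of all genes) and 0 fell by limma (against 8.05%). At an unadjusted p under 0.05, 17 of the 38 were lower with LPS, as were 4406 of all 11745 genes. With MP 2 rose (5.26%, against 1.82%) and 0 fell by limma (against 1.85%). At the same unadjusted p, 7 were lower with MP, as were 2627 of all 11745 genes. With LPS+MP 3 rose (7.89%, against 8.52%) and 4 fell (10.5%, against 12.3%) relative to control. The called shares were near those of all genes with LPS+MP and for the risers with LPS. The medians were -0.12, -0.01 and -0.23, against -0.08, 0.02 and -0.10 over all genes. Under quantile normalization the class medians with LPS and LPS+MP were -0.06 and -0.07, against -0.0522 and 0.0063 over all genes. Without the fold threshold 11 of the 38 were higher and 14 lower with LPS (26.6% and 35.6% of all genes). With LPS+MP 10 were higher and 16 lower (27.7% and 38.6% of all genes). The risers were thus few members within a class whose median was near or below 0. Slc25a37 (mitoferrin 1), which takes iron into mitochondria for heme and iron-sulfur cluster synthesis (chr14:69241848-69285112, minus strand), was at 75.2, 79.3 and 80.7 CPM in control, 209, 201 and 196 with MP, 369, 286 and 329 with LPS, and 442, 406 and 434 with LPS+MP. The groups stood in that order with no overlap. The rise was 1.35 ± 0.08 with MP, 2.04 ± 0.08 with LPS and 2.43 ± 0.08 with LPS+MP (adjusted p = 1.3e-08, 9.74e-12 and 6.02e-13). Its relative Slc25a28 (mitoferrin 2) was at 37.3 ± 1.01 CPM in control and 34.0 ± 8.02 with LPS, a difference of -0.16 ± 0.15 (adjusted p = 0.366).

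Slc25a33, a pyrimidine nucleotide carrier, was at 6.47, 6.60 and 5.34 CPM in control, 25.3, 28.0 and 27.1 with MP, 16.2, 12.8 and 17.5 with LPS, and 27.1, 27.9 and 23.3 with LPS+MP. LPS+MP reached the level of MP alone, with overlapping libraries, and LPS alone lay between that level and control. The rise with MP, 1.96 ± 0.12 (adjusted p = 1.93e-08), was the largest of any member with MP, and with LPS it was 1.20 ± 0.12 (adjusted p = 6.2e-07). Slc25a35 rose with LPS by 1.21 ± 0.17 (adjusted p = 1.75e-05) at a low level, 1.36 ± 0.443 to 4.44 ± 0.757 CPM. Slc25a25, a calcium-regulated carrier of ATP-Mg and phosphate, rose with LPS+MP by 1.03 ± 0.09 (adjusted p = 7.75e-08) and was at 0.93 without the third control library and 0.997 without the first LPS+MP library.

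The 4 mitochondrial carriers that fell with LPS+MP were Slc25a10, Slc25a13, Slc25a23 and Slc25a45. Slc25a10, the dicarboxylate carrier that exchanges malate or succinate for phosphate, was at 84.9, 79.0 and 78.5 CPM in control, 39.6, 46.6 and 52.5 with MP, 76.7, 52.1 and 72.2 with LPS, and 30.3, 34.0 and 33.1 with LPS+MP. All MP libraries were below control, and all LPS+MP libraries were below LPS. It fell for LPS+MP by 1.29 ± 0.13 on the log2 scale against control and by 1.00 ± 0.13 against LPS (adjusted p = 2.72e-07 and 2.25e-05). The second of these calls was at the threshold, at -0.90 without the first LPS library, -0.94 without the third, -0.96 without the first LPS+MP library, -0.93 under quantile normalization and -0.97 under median-ratio scaling. Slc25a23, a relative of Slc25a25 with the same substrates, moved the other way: it was at 64.6, 63.0 and 61.6 CPM in control, 59.9, 59.9 and 55.6 with MP, 36.5, 38.2 and 46.0 with LPS, and 24.4, 26.8 and 25.0 with LPS+MP. Its fall with LPS+MP was 1.28 ± 0.09 against control and 1.17 ± 0.09 against MP, on the log2 scale (adjusted p = 3.75e-09 and 1.73e-08). Slc25a13 (citrin), the aspartate and glutamate exchanger of the malate-aspartate shuttle, was at 76.9 ± 4.37 CPM in control, 54.9 ± 3.13 with MP, 40.9 ± 5.33 with LPS and 28.7 ± 1.72 with LPS+MP, where it fell by 1.39 ± 0.10 on the log2 scale (adjusted p = 3.53e-09).

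Several well-known mitochondrial carriers passed the fold threshold in no comparison. Slc25a5, an ADP/ATP carrier with the highest mean CPM of the class over all 12 libraries, was at 363 ± 23.5 CPM in control, 356 ± 10.7 with MP, 324 ± 14.8 with LPS and 282 ± 5.27 with LPS+MP. Slc25a3, the phosphate carrier, was at 357 ± 2.52 CPM in control, 297 ± 21.4 with MP, 229.8 ± 24.0 with LPS and 229 ± 3.72 with LPS+MP, with a difference of -0.64 ± 0.08 with LPS (adjusted p = 3.65e-06). Slc25a1, the citrate carrier, was at 84.4 ± 3.63 CPM in control and 102 ± 14.2 with LPS (0.26 ± 0.09, adjusted p = 0.0257).

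**Figure D3:**
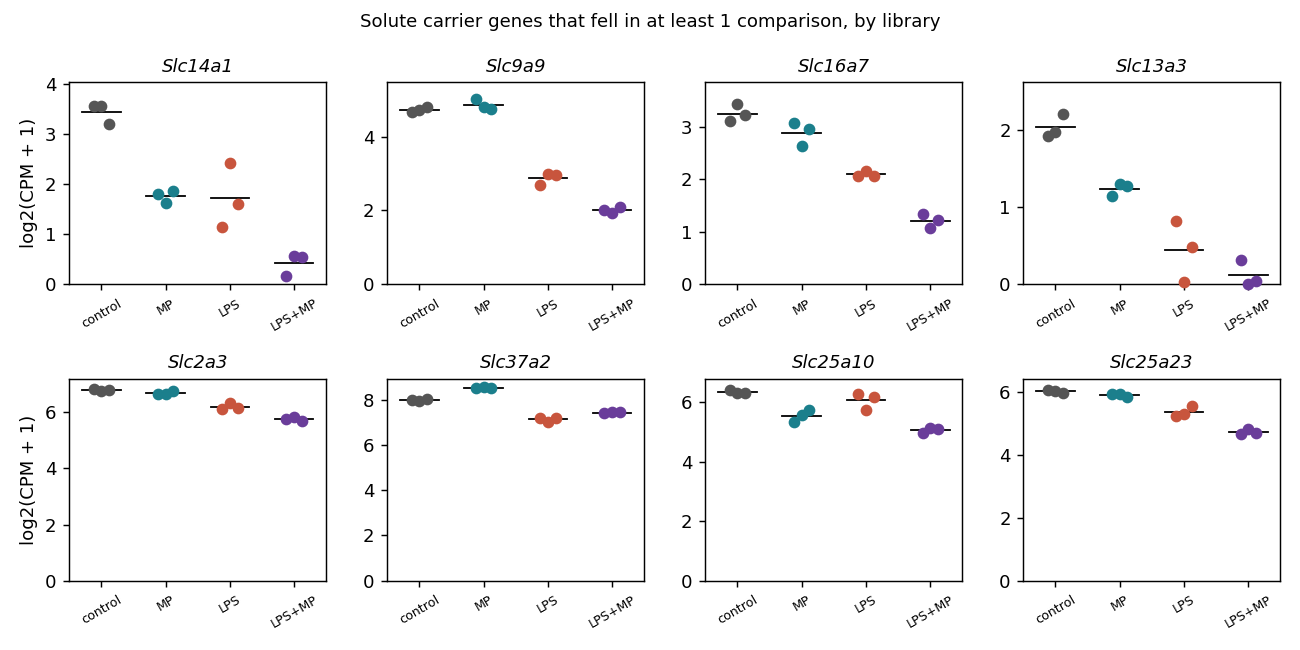
Level of 8 solute carrier genes that fell in at least 1 comparison, in each library as log2(CPM + 1), by group (points are libraries, the black bar is the group mean, n = 3). All panels have their lowest group mean with LPS+MP except Slc37a2, whose lowest group is LPS.

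Organic ion, nucleoside, ion and other carriers held further large changes. Slc22a4 (OCTN1), the carrier of the antioxidant ergothioneine (chr11:53983123-54028090, minus strand), was at 6.11, 6.60 and 7.09 CPM in control, 14.3, 15.4 and 14.4 with MP, 36.0, 31.3 and 37.9 with LPS, and 48.0, 41.0 and 46.8 with LPS+MP. The 4 groups stood in that order without overlap, with rises of 1.05 ± 0.10, 2.25 ± 0.10 and 2.60 ± 0.10 against control (adjusted p = 1.79e-06, 4.25e-11 and 4.1e-12). Its neighbour Slc22a21 lies 2.79 kb away, and Slc22a5, the carnitine carrier OCTN2, 58.3 kb further; their differences with LPS were -0.22 and 0.13 and neither was called. Slc28a2 (CNT2), a concentrative nucleoside carrier, was at 14.2, 17.0 and 17.7 CPM in control, 11.3, 11.0 and 14.1 with MP, 82.2, 69.9 and 77.1 with LPS, and 38.1, 35.0 and 27.7 with LPS+MP. LPS alone was clearly the highest group, with a rise of 2.16 ± 0.13 (adjusted p = 9.99e-10), and LPS+MP fell from it by 1.17 ± 0.13 on the log2 scale (adjusted p = 5.67e-06). The equilibrative nucleoside carrier Slc29a1 (ENT1) was at 109 ± 7.13 CPM in control, 124 ± 4.50 with MP, 65.4 ± 3.41 with LPS and 60.1 ± 2.17 with LPS+MP. For LPS+MP against MP it passed at -1.03 ± 0.07, a call lost under both other scalings (-0.97 and -0.88) and, at -0.996, without the first LPS+MP library.

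Slc24a3 (NCKX3), a potassium-dependent sodium/calcium exchanger with a promoter window shown above, was at 1.43, 1.15 and 1.38 CPM in control, 0.743, 0.982 and 0.782 with MP, 7.93, 5.49 and 7.05 with LPS, and 10.4, 9.53 and 8.38 with LPS+MP. The rise was 1.74 ± 0.15 with LPS and 2.17 ± 0.15 with LPS+MP (adjusted p = 7.44e-08 and 3.85e-09). Slc20a1 (PiT1), the sodium-phosphate carrier, was at 222, 211 and 222 CPM in control, 346, 324 and 298 with MP, 298, 345 and 318 with LPS, and 618, 649 and 611 with LPS+MP. MP and LPS alone gave overlapping levels, and the LPS+MP libraries were the highest. LPS+MP rose by 1.52 ± 0.07 against control (adjusted p = 4.33e-11) and stood above LPS by 0.97 ± 0.07 (adjusted p = 9.8e-08), just short of 2-fold. Slc6a8, the creatine carrier, was likewise highest with LPS+MP, at 203, 208 and 209 CPM in control, 193, 195 and 205 with MP, 201, 139.6 and 167 with LPS, and 327, 297 and 324 with LPS+MP, above LPS by 0.91 ± 0.10 (adjusted p = 4.81e-06).

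Some carriers fell with LPS. Slc9a9 (NHE9), the sodium/proton exchanger of endosomes, was at 24.6, 25.5 and 26.9 CPM in control, 31.5, 26.9 and 25.8 with MP, 5.46, 6.96 and 6.75 with LPS, and 3.05, 2.82 and 3.24 with LPS+MP. Control and MP overlapped, and both LPS groups were far below, with LPS+MP lowest. The fall was 1.86 ± 0.12 on the log2 scale with LPS and 2.73 ± 0.12 with LPS+MP (adjusted p = 2.14e-09 and 1.32e-11). Slc16a7 (MCT2), a high-affinity carrier of lactate and pyruvate, was at 7.55, 9.72 and 8.33 CPM in control, 7.33, 5.23 and 6.76 with MP, 3.19, 3.43 and 3.14 with LPS, and 1.53, 1.09 and 1.33 with LPS+MP, a fall of 1.16 ± 0.15 with LPS and 2.04 ± 0.15 with LPS+MP (adjusted p = 6.16e-06 and 6.7e-09). The lactate carriers Slc16a1 (MCT1) and Slc16a3 (MCT4) were called in no comparison. Slc16a1 was at 105, 111 and 106 CPM in control and 107, 148 and 118 with LPS, and Slc16a3 at 6.44 ± 0.853 and 7.64 ± 0.772.

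Slc14a1, the urea carrier UT-B, fell with every treatment. It was at 10.8, 10.9 and 8.21 CPM in control, 2.48, 2.09 and 2.62 with MP, 1.21, 4.38 and 2.03 with LPS, and 0.118, 0.474 and 0.452 with LPS+MP, so that the MP and LPS libraries overlapped and the LPS+MP libraries were the lowest. It fell on the log2 scale by 1.69 ± 0.25 with MP, 1.73 ± 0.25 with LPS and 3.03 ± 0.25 with both (adjusted p = 9.55e-05, 2.37e-05 and 3.39e-08). LPS+MP against LPS fell by 1.30 ± 0.25, and that difference was -0.95, short of 2-fold, without the second LPS library. Slc13a3 (NaDC3), a sodium-coupled dicarboxylate carrier, was at 2.77, 2.92 and 3.60 CPM in control, 1.21, 1.45 and 1.41 with MP, 0.761, 0.0156 and 0.396 with LPS, and 0.239, 0.00137 and 0.0255 with LPS+MP, a fall of 1.59 ± 0.20 with LPS (adjusted p = 4.34e-06). Slc13a3 reached 1 CPM in no library with LPS, so it passed the filter only through the groups where it was higher. Slc17a5 (sialin), which exports sialic acid from lysosomes, was at 78.5 ± 1.80 CPM in control, 73.3 ± 4.82 with MP, 47.5 ± 0.830 with LPS and 33.9 ± 1.90 with LPS+MP, where it fell by 1.19 ± 0.07 on the log2 scale (adjusted p = 9.6e-10). Slc35b2, the Golgi carrier of the sulfate donor PAPS, fell with LPS+MP from 102 ± 2.38 to 49.4 ± 0.900 CPM (-1.04 ± 0.07), and was the one called member of the 13 nucleotide sugar carriers; it was short of 2-fold under both other scalings, at -0.93 and -0.96.

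Further called members follow, several of them near the threshold or resting on 1 library. With MP, Slc46a3, a lysosomal carrier, rose from 4.38 ± 0.440 to 10.3 ± 1.68 CPM (1.06 ± 0.17), at 0.94 without the first MP library, and Slc16a14 rose from 1.21 ± 0.255 to 5.11 ± 1.13 CPM (1.46 ± 0.19, adjusted p = 2.98e-05). With LPS, Slc18a2 (VMAT2), the vesicular monoamine carrier, read 2.81, 8.69 and 2.97 CPM against 1.63, 1.59 and 1.20 in control. Its rise of 1.10 ± 0.29 (adjusted p = 0.00397) rested on the second LPS library and was 0.66 without it, and 0.96 under quantile normalization. Slc26a11, an anion exchanger family member, fell with LPS by 1.07 ± 0.16 on the log2 scale, and its difference was -0.87 without that library and -0.999 under median-ratio scaling. Slc16a5 rose by 1.03 ± 0.18, at 0.97 without that library, 0.99 without the third control library and 0.91 under quantile normalization, and Slc27a4 (FATP4), a fatty acid carrier, by 1.04 ± 0.12, at 0.87 without the first LPS library. Without the second LPS library, 24 of the 27 LPS calls were kept. With LPS+MP, Slc35f1, a member of unknown substrate, rose against control by 1.01 ± 0.20 and against MP by 1.04 ± 0.20 (0.90 to 0.94 without the third control, second MP or first LPS+MP library). Its means were 0.0633 CPM per kb of transcript in control, 0.0607 with MP, 0.573 with LPS and 0.335 with LPS+MP. At these levels no control or MP library reached 1 CPM. Slc35f1 thus passed the filter only through the LPS and LPS+MP groups and had to differ to be tested, also for its call with LPS. Slc4a7 (NBCn1), a sodium-bicarbonate carrier, rose against control by 1.03 ± 0.12 (0.98 without the first control library), and Slc8b1 (NCLX), the mitochondrial sodium/calcium exchanger, against MP by 1.01 ± 0.11 (0.90 and 0.98 without the first MP or second LPS+MP library). Slc22a18, an organic cation carrier family member, rose against control by 1.30 ± 0.22, and Slc9a3r1, one of the 3 genes that code for no carrier, against MP by 1.17 ± 0.14.

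Of the 199 members, 30 overlap another gene of the table, and no source used here says whether the counting used strand, so reads of overlapping genes may not be separable. For 5 of the risers, the partner's levels are set beside them first, and the partners of other called members follow. Gm26584, opposite Slc7a2, went from a group mean of 0.254 CPM in control to 3.53 with LPS and 9.47 with LPS+MP, and Tmem132a, opposite Slc15a3, from 109 to 253 and 236 CPM. Oxa1l, opposite Slc7a7, went from 67.3 to 41.5 CPM with LPS and 44.8 with LPS+MP. Psmc3, opposite Slc39a13, went from 145 to 120 and 156 CPM, and Mettl17, on the same strand as Slc39a2, from 21.7 to 16.4 and 23.1, with 23.7 in MP. With LPS the first pair of partners were thus higher than control, as the carriers were, and the other 3 lower, while with LPS+MP all but Oxa1l were higher. Tbpl1, opposite Slc2a12, was at 51.9 CPM with MP and 34.0 with LPS+MP, so it was lower where Slc2a12 fell. Cdc26, opposite Slc31a1, was at 18.4 and 19.2 CPM in these groups. Hdac7, opposite Slc48a1, went from 24.97 CPM in control to 4.37 with MP and 6.66 with LPS+MP, while Slc48a1 was higher. Naif1, opposite Slc25a25, went from 14.9 to 12.1 CPM with LPS+MP, and Rangrf, opposite Slc25a35, from 8.59 to 6.54 with LPS.

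The design also tests whether the effect of MP differs between cells with and without LPS, as the difference of (LPS+MP minus LPS) and (MP minus control). Of 198 members, 5 had a negative difference past both thresholds (2.53%, against 3.68% of all genes) and 0 a positive one by limma (0%, against 1.02%). At an unadjusted p under 0.05, 21 members were positive, as were 1356 of all 11745 genes. At an adjusted p under 0.05, 11 members were positive (against 6.45% of all genes) and 55 negative (against 15.5%). The count of positive differences became 2 without the third MP or the first LPS library (Slc36a2 and Slc6a8) and 1 without the second LPS+MP library (Slc6a8), and the count of negative ones became 8 without the third LPS+MP library. The median difference was -0.23, against -0.08 over all genes. Slc6a9 had the largest, at -1.58 ± 0.15 (adjusted p = 4.22e-06): MP raised it by 1.63 in cells without LPS and changed it by 0.06 ± 0.11 in cells with LPS. Slc25a33 had -1.24 ± 0.18 (adjusted p = 0.000149), with MP effects of 1.96 and 0.72. Slc1a4 had -1.19 ± 0.13 (adjusted p = 1.55e-05), with effects of 1.06 and -0.13. In these 3 genes the level with LPS alone was already above control.

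Slc25a35 had a difference of -1.14 ± 0.24 (adjusted p = 0.00349), with MP effects of 0.64 and -0.50, and Slc38a6 one of -1.01 ± 0.11 (adjusted p = 1.17e-05), with effects of 0.45 and -0.56. The effect thus had opposite signs in these 2 genes. Both calls were lost under several alternatives. Slc25a35 was at -0.98 without the third control library and -0.83 under quantile normalization, and it was not in the tested set at a minimum of 5 CPM. Slc38a6 was at -0.95 to -0.98 without the second control, the third MP, the first LPS or the second LPS library, at -0.99 under quantile normalization and at -0.94 under median-ratio scaling. Metal carriers leaned the same way below 2-fold. Of 24, 13 had a negative difference at an adjusted p under 0.05 (15.5% of all genes did) and 1 a positive one (6.45%). At an unadjusted p under 0.05, 15 were negative, as were 2776 of all 11745 genes, and 0 passed both thresholds by limma. The lean was not particular to metals. At the same adjusted p, 5 of 6 carriers of nucleosides and bases were negative and 0 positive, and of 26 amino acid carriers 9 were negative and 2 positive. The 2 MP effects share no library, and over the 198 members their Pearson correlation was 0.513 and their Spearman correlation 0.448, against 0.464 and 0.437 over all genes. These are given as descriptions only, over genes that share the same libraries.

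**Figure D4:**
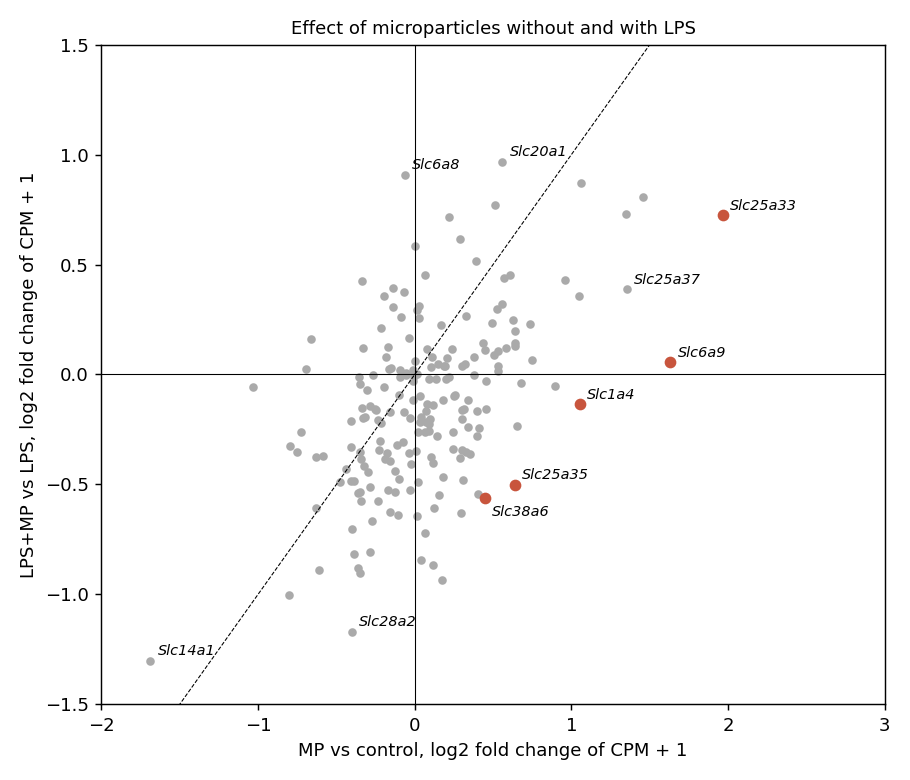
Effect of MP on each tested solute carrier gene in cells without LPS (horizontal axis, MP minus control) and with LPS (vertical axis, LPS+MP minus LPS), as log2 differences. Points are genes, the dashed diagonal marks equal effects, and the 5 red points below it are those whose MP effects differed past both thresholds, from Slc38a6 at -1.01 to Slc6a9 at -1.58.

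Carrier genes of related kind that do not bear the Slc prefix were looked up in the same fit, from a list of 45 of which 29 were tested. LPS raised 2 and lowered 2 of these (6.9% each, against 8.3% and 8.05% of all genes), MP raised 1 and lowered 1 (3.45% each, against 1.82% and 1.85%), and LPS+MP raised 2 (6.9%, against 8.52%) and lowered 4 (13.8%, against 12.3%) relative to control. With so few genes, these shares lay near the background. Mfsd6 fell with LPS by 2.50 ± 0.12 on the log2 scale (48.6 ± 3.75 to 7.80 ± 1.14 CPM, adjusted p = 6.52e-11). Mfsd7a rose from 4.11 ± 0.176 CPM in control to 11.7 ± 1.27 with MP, 25.4 ± 7.11 with LPS and 30.9 ± 1.24 with LPS+MP. The organic anion carrier Slco2b1 fell from 2.76 ± 0.539 CPM to 0.555 ± 0.0652 with MP and 0.171 ± 0.227 with LPS. Slco2b1 reached 1 CPM only in the control libraries, with at most 0.630 CPM in any treated library. It thus had to differ to be tested, and its falls, counted above, carry no weight as a result. Ucp2, an abundant mitochondrial carrier of the SLC25 fold, was called in no comparison, at 693 ± 17.5 CPM in control, 737 ± 34.2 with MP, 531 ± 87.9 with LPS and 436 ± 18.4 with LPS+MP.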

How the data were processed

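Poly(A) RNA from 12 libraries of J774A.1 cells, 3 each of control, MP, LPS and LPS+MP, was sequenced after directional library preparation with 16 PCR cycles, per the labels' protocols. The submitters' processing notes name TopHat2 2.1.1 and HTSeq, besides FastQC 11.5 and Trimmomatic 0.36, and DESeq2 with edgeR. Genome build: not given in the sources used here; the same holds for the strand setting of the counting and for what each tool did. The deposited columns are headed as RPKM, yet they sum to 998867 to 999273 in every library and were not divided by gene length, so they are read as CPM (read counts scaled to the library total), as the authors deposited them. Because reads per library are not known, no interval for counting error could be formed.

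Values were put on the scale log2(CPM + 1), with a pseudocount of 1, computed from the deposited CPM. Genes with at least 1 CPM in at least 3 libraries were kept, and group means of all 12 libraries were fitted with limma 3.58.1 (lmFit, eBayes with trend) in R 4.3.3. Calls needed a Benjamini-Hochberg adjusted p under 0.05 over all genes tested and a change of over 2-fold. The procedure was tested on simulated data. Substrate classes follow the family number, with named exceptions. All 199 gene identifiers were found in GENCODE M21 (GRCm38) and all 199 intervals overlap it, 127 of them exactly; coordinates printed for genes are those of the deposited table. Promoters are from RefSeq.

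A rule set which members could have per-library values. It took the called members with the largest change in each class and comparison whose groups do not overlap. It also took the smallest adjusted p of the interaction and the most abundant members of 4 classes. Not all of these are given by library. The rest of them, like other members, are named with group means or differences alone. A few members (Slc7a1, Slc15a4, Slc25a28, Slc25a1, Slc16a1, Slc16a3, Slc30a1, Slc7a5, Slc3a2, Slc37a4, Slc6a8, Ucp2) were chosen as relatives or well-known carriers after their values were seen. Among these, Slc16a1 and Slc6a8 have per-library values. Slc7a7 and Slc6a13 have per-library values because their promoters hold the NF-kB core, likewise a choice made after their values were seen. The members and lists were chosen with earlier results of these data known. Alternatives tried were another pseudocount (0.1), no filter and a minimum of 5 CPM, quantile and median-ratio scaling, a block for the replicate number, a fit with no trend in the variance, a fit of the compared groups alone, calls on p alone, and leaving out each library. Leaving the second LPS library out of comparisons that do not include its group was added after seeing the data.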

Additional observations from a re-analysis of the deposited data

Results flagged for a closer look

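The effect of MP on 5 solute carrier genes differed between cells with and without LPS by a test of the difference itself (the interaction term of the limma fit, adjusted over all 11745 genes). As MP effect with LPS minus MP effect without LPS, on the log2 scale, the differences were -1.58 for the glycine carrier Slc6a9, -1.24 for the mitochondrial pyrimidine nucleotide carrier Slc25a33 and -1.19 for the neutral amino acid carrier Slc1a4. These 3 calls were kept under every alternative run. The differences were -1.14 for the mitochondrial carrier Slc25a35 and -1.01 for Slc38a6, and these calls were less stable. Slc25a35 fell short of 2-fold under quantile normalization (-0.83) and without the third control library (-0.98), and a minimum of 5 CPM removed it from the test. Slc38a6 fell short under quantile normalization (-0.99) and median-ratio scaling (-0.94) and on leaving out any 1 of 4 libraries (-0.95 to -0.98).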

How the results depend on the processing

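Of 102 called values of single genes, 77 kept their call under every alternative that tested them, and 0 changed sign. Without the fold threshold, 54 members were higher and 36 lower with MP, 87 and 46 with LPS, 20 and 65 for LPS+MP against LPS, 57 and 59 for LPS+MP against MP, 78 and 63 for LPS+MP against control, and 11 and 55 for the interaction. A minimum of 5 CPM, and likewise quantile normalization, left 1 member falling with MP. Quantile normalization gave 2 risers for LPS+MP against LPS and 1 positive interaction; median-ratio scaling gave 6 fallers for LPS+MP against MP and 1 positive interaction. A pseudocount of 0.1 gave 3 risers and 9 fallers for LPS+MP against LPS, and 2 positive and 11 negative interactions, as it weighs changes at low levels more. Leaving out each library in turn gave 6 to 9 risers and 1 to 2 fallers with MP, 21 to 24 and 5 to 6 with LPS, 0 to 1 and 2 to 4 for LPS+MP against LPS, 13 to 16 and 10 to 12 for LPS+MP against MP, 19 to 21 and 12 to 15 for LPS+MP against control, and 0 to 2 and 4 to 8 for the interaction. Median-ratio scaling also gave 24 risers and 11 fallers for LPS+MP against control, and quantile normalization 22 and 10. Same-numbered libraries did not pair: over 18 pairs the median correlation of their deviations was 0.0178 (-0.247 to 0.158), and only 3 of the 12 had their highest correlation within their number. A replicate block kept all pairwise calls (8 risers and 2 fallers with MP, 21 and 6 with LPS) and gave 6 in place of 5 negative interactions. Other causes of these shifts were not tested. Depth being unknown, precision at levels near 1 CPM cannot be stated.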
